A study of Homo sapiens with 21 samples.

Results

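The 60 genes described here encode the kinases, phosphatases, kinetochore proteins and spindle proteins that carry a cell through mitosis, together with the transcription factors FOXM1 and MYBL2 and the proliferation marker MKI67. They were taken by gene symbol from a fixed list, each matched 1 row of the 60728 gene rows of the deposited table, and all 60 passed the filter on low counts that left 18584 genes for testing. The study asked which genes are controlled in neuroblastoma cells by BAF, a complex that remodels chromatin, and silenced its subunits ARID1A and ARID1B. RNA-Seq was made from 21 libraries in 7 conditions, 3 libraries each: a non-silencing control shRNA (Control), a pair labelled for ARID1A (shARID1A.2 and shARID1A.4), a pair labelled for ARID1B (shARID1B.2 and shARID1B.3), and a pair labelled for both (shARID1A/B.2.3 and shARID1A/B.4.2). All cells, Control included, were SK-N-BE(2) cells transduced with lentivirus, and RNA was taken 72 h later from what the submitters call biological triplicates. Short hairpin RNAs (shRNAs) are processed in the cell and lower the transcript they match. SK-N-BE(2) is 1 established human neuroblastoma cell line with MYCN amplification, so the values hold for 1 line. The p-values rest on the spread between libraries of the same condition, estimated in 1 fit over all 7 conditions.

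In mitosis, CDK1 bound to cyclin B starts the entry, Aurora and Polo-like kinases order the spindle and the centrosomes, and the kinetochore, a protein structure built on centromeric chromatin, holds each chromosome to spindle microtubules. The spindle assembly checkpoint keeps the anaphase-promoting complex inactive until every kinetochore is attached, after which separase cuts cohesin and kinesins and cytokinesis proteins divide the cell. Transcripts of most of these genes accumulate late in the cell cycle, when FOXM1, MYBL2 and the MuvB complex activate promoters that often carry CCAAT boxes and a cell cycle homology region (CHR).

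The silenced genes were examined first, because they check the labels. Normalised values are reads on a gene divided by 1 size factor per library. ARID1A (chr1:26693236-26782110 on GRCh38) had 6097, 6374 and 6463 in Control, 2169, 2160 and 2109 in shARID1A.2, 2289, 2157 and 2284 in shARID1A.4, 1962, 1882 and 1916 in shARID1B.2, 2507, 2480 and 2450 in shARID1B.3, 5510, 5752 and 5714 in shARID1A/B.2.3 and 5589, 5352 and 5379 in shARID1A/B.4.2. ARID1B (chr6:156776020-157210779) had 5793, 5804 and 5791 in Control, 2252, 2248 and 2224 in shARID1A.2, 3065, 3110 and 3126 in shARID1A.4, 5056, 4913 and 5043 in shARID1B.2, 6182, 6038 and 6053 in shARID1B.3, 2540, 2651 and 2607 in shARID1A/B.2.3 and 1886, 1881 and 1955 in shARID1A/B.4.2. Both genes were low in the libraries labelled shARID1A. In those labelled shARID1B, ARID1A was low and ARID1B stood at 86.3 and 105% of the Control mean, and in those labelled shARID1A/B, ARID1B was low and ARID1A stood at 89.7 and 86.2%. Every series of 6 values below runs through both conditions labelled shARID1A (2, then 4), both labelled shARID1B (2, then 3) and both labelled shARID1A/B (2.3, then 4.2). In this order the log2 differences from Control were -1.56, -1.49, -1.72, -1.35, -0.16 and -0.21 for ARID1A and -1.37, -0.90, -0.21, 0.07, -1.16 and -1.60 for ARID1B. All 12 passed limma's test at an adjusted p under 0.05, although that of ARID1A in shARID1A/B.4.2 was -0.03 and no longer passed when libraries were scaled to their total reads. The measured levels and the names therefore disagree for all 3 labels, including shARID1A, in which ARID1B stood at 38.7 and 53.5% of the Control mean. Labels may have been exchanged between conditions, which was not tested, and every condition below is named only as its libraries are labelled.

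**Figure D1:**
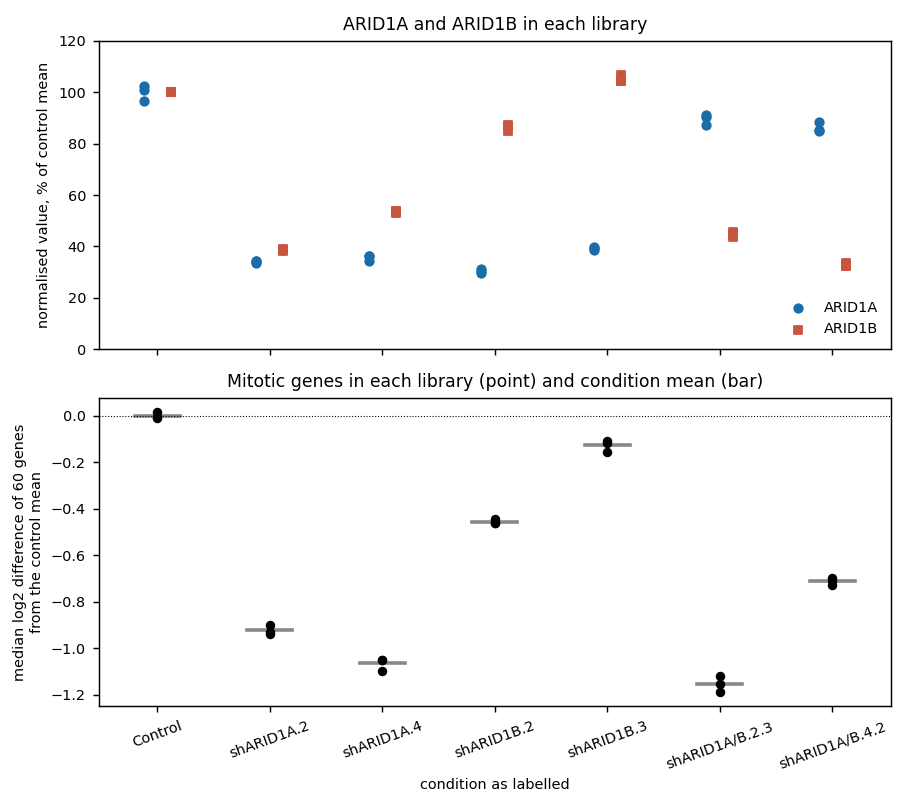
Top: normalised value of ARID1A (circles) and ARID1B (squares) in each library as a percent of the Control mean, by labelled condition. Bottom: median over the 60 mitotic genes of the log2 difference from the Control mean, 1 point per library with the mean of 3 libraries as a bar; the Control libraries lie between -0.011 and 0.016, and those of shARID1A/B.2.3 between -1.191 and -1.12.

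The libraries held 27954334 to 41077638 recovered reads. The sum of normalised values was 31245800 to 32815053 in shARID1A.2, shARID1B.2 and shARID1A/B.4.2 and 34891114 to 35919784 in the other conditions, and mitochondrial genes took 6.35 to 6.63% of reads in Control and 6.66 to 8.20% elsewhere. The adrenergic neuroblastoma markers PHOX2A, HAND2, GATA3, ISL1, TH, DBH and MYCN were detected in every library. MYCN was the most abundant of them, with normalised values of 120355 to 124192 in Control, and moved with the condition. It had 410526 to 426870 in shARID1A.4 and 216229 to 221301 in shARID1A/B.2.3, the conditions in which all 60 mitotic genes were lower, 148109 to 165689 in shARID1B.3, and 77312 to 95144 in shARID1A.2, shARID1B.2 and shARID1A/B.4.2. TH and DBH were also highest in shARID1A.4 and shARID1A/B.2.3. In every silenced condition HAND2 and ISL1 lay below Control and GATA3 above it. HAND2 had 19025 to 19481 in Control, 5778 to 6075 in shARID1A.2 and 6791 to 6944 in shARID1A/B.4.2. Of the markers of other cells, KRT5 was listed at 0 in all 21 libraries, HBB in 20, PECAM1 in 17 and CD3E in 11. The blood list (PTPRC, CD68, CD3E and HBB) summed to 418 to 451 in Control and 61.2 to 330 elsewhere, the endothelial list (PECAM1, CDH5 and VWF) to 41.4 to 71.7 and 0.97 to 70.2, and the epithelial list (EPCAM, KRT5 and CDH1) to 61.6 to 76.3 and 59.4 to 228. The fibroblast list (PDGFRA, DCN and LUM) was well expressed in this line, at 14307 to 14609 in Control, and was lowest in shARID1A.4 at 4336 to 4584, where all 60 mitotic genes were lower. Its members did not move together. DCN had 1919 to 1977 in Control and 4617 to 4785 in shARID1B.2, while LUM had 10847 to 11003 and 7310 to 7421. The part of these features in the results below was not tested.

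The letters in front of the genes' start sites were compared before their transcripts. RefSeq promoter windows on GRCh38.p14, 250 bases before to 50 after a start, were found for 49 of the 60 genes, 1 window per gene being the first listed. No window was found for AURKA, WEE1, PKMYT1, BIRC5, BUB3, TTK, CENPH, CENPM, KNL1, TPX2 and FOXM1. The words searched on both strands were TTTGAA as the CHR hexamer, its variants TTCGAA as well as TTTAAA as well as CTTGAA (all CHR-like), and CCAAT as the box of that name. The E2F words TTTGGCGC, TTTCCCGC, TTTCGCGC and TTTGCCGC were searched in the same way. TTCGAA and TTTAAA read the same on both strands, and no word contains another, though neighbouring matches can share end bases. A CHR-like hexamer stood in 39 of the 49 windows (79.6%) and in 32.5% of the windows of 27305 genes. The hexamer TTTGAA itself stood in 30 windows (61.2% against 15.4%). A CCAAT box was found in 37 windows (75.5% against 35.7%), 2 or more of them in 21 (42.9% against 11.3%), and a CCAAT box with a CHR-like hexamer in 31 (63.3% against 12.7%). An E2F word stood in 6 windows (12.2% against 3.33%). These are matches of letters and carry no test. A CCAAT box with a CHR-like hexamer stood in 15 of the 27 windows of genes lower in all 6 conditions and in 16 of the 22 windows of the other genes.

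The 250 bases before the start of 6 genes show these words in place, written 5′ to 3′ with CHR-like hexamers and CCAAT boxes of either strand in capitals. CCNB1, PLK1 and KIF11 were lower in 5, 5 and 6 conditions and carry both words, with the CHR-like hexamer nearest the start beginning 30, 29 and 28 bases before it. SPC24 and CDC25B left the common fall, CENPQ had the lowest mean of all 60 genes, and the windows of all 3 hold no CHR-like hexamer. The hexamer does not separate the genes: it stood in 2 of the 5 windows of genes higher in at least 1 condition (CENPA and CENPN). The windows of CENPW, PTTG1, MAD2L1 and BUB1B, which fell more than the median gene in some conditions, hold it too. It was missing from 7 of the 27 windows of genes lower in all 6 conditions (AURKB, CDC25A, CDC25C, CENPI, CENPK, CENPQ and CENPU).
CCNB1 (chr5:69166900-69167149, plus strand): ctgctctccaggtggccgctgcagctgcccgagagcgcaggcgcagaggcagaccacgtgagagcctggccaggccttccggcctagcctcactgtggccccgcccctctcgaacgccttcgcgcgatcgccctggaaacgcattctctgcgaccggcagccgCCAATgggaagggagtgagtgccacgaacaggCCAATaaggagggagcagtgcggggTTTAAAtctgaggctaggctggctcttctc
PLK1 (chr16:23678639-23678888, plus strand): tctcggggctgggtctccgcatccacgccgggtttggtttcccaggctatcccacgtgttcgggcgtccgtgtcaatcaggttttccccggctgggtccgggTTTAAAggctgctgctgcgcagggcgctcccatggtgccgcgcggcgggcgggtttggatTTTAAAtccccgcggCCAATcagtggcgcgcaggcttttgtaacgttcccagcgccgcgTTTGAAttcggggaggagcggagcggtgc
KIF11 (chr10:92592880-92593129, plus strand): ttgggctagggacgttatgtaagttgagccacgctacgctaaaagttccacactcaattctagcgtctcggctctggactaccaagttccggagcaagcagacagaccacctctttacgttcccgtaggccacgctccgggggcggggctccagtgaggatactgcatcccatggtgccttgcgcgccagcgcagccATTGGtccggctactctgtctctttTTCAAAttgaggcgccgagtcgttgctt
SPC24 (chr19:11155783-11156032, minus strand): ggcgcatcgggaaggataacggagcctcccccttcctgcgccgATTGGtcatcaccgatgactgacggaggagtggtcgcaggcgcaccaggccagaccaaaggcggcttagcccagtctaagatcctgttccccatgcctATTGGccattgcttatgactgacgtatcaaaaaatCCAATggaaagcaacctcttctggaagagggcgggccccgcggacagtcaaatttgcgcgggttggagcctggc
CDC25B (chr20:3786701-3786950, plus strand): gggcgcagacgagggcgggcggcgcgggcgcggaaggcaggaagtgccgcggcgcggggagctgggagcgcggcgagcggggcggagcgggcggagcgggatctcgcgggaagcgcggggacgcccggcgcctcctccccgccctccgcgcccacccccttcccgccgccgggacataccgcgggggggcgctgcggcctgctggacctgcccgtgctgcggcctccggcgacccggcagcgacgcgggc
CENPQ (chr6:49463120-49463369, plus strand): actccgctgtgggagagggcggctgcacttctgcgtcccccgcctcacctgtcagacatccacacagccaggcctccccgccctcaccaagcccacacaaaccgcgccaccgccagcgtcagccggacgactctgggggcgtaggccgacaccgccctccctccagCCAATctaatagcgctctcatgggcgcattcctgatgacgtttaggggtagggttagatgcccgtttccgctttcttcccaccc
SPC24 has 3 CCAAT boxes and CDC25B none, so the windows of these departing genes are not alike. The absence of a word says only that these letters are not in this window. Some windows lie inside the annotated gene and not at the start of its span. That of CENPI (chrX:101100808-101101107) lies within chrX:101098218-101163681, on the plus strand.

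The mitotic genes fell together in 5 of the 6 conditions and little in the remaining one, shARID1B.3. The median log2 difference from Control was -0.93 in shARID1A.2, -1.07 in shARID1A.4, -0.47 in shARID1B.2, -0.12 in shARID1B.3, -1.16 in shARID1A/B.2.3 and -0.71 in shARID1A/B.4.2, while the median over all tested genes was 0.01 to 0.02 in each. In bulk RNA, fewer cells in mitosis and less of these transcripts per cell cannot be told apart. Differences are on the scale of log2 of the normalised value plus 1 and were tested with limma over all 21 libraries, and a gene is called lower or higher at a Benjamini-Hochberg adjusted p under 0.05. In shARID1A.2, 58 genes were lower and 1 higher, where 38.2% of all tested genes were lower and 37.9% higher. In shARID1A.4 all 60 were lower, against 36.6% of all genes (37.0% higher). In shARID1A/B.2.3 all 60 were again lower, against 34.0% (35.2% higher), and in shARID1A/B.4.2, 57 were lower and 3 higher, against 36.1% and 35.1%. The libraries labelled shARID1B differed from these. In shARID1B.2, 53 genes were lower and 2 higher, against 34.0% and 31.6% of all genes, and in shARID1B.3, 33 were lower and 7 higher, against 32.0% and 31.9%. The counts of higher genes depended on the scaling. With libraries scaled to total reads, 6 were higher in shARID1B.2, against 7891 of all 18584 tested genes. With upper-quartile scaling 12 were higher in shARID1B.3, against 7077 of 18584, and the median of the 60 genes there was -0.050. With libraries scaled to their total reads, lower genes made up 38.8, 37.0 and 35.2% of all called genes in shARID1A.2, shARID1B.2 and shARID1A/B.4.2, against 50.2, 51.9 and 50.7% here.

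Read against this background, the count stood out most where all 60 genes were lower and least in shARID1B.3, where 55% were lower. By size, 44 of the 60 genes fell by more than 1 on the log2 scale in shARID1A/B.2.3, where 9.66% of all tested genes did, 36 did in shARID1A.4 (12.5%), 22 in shARID1A.2 (11%), and 10 in shARID1A/B.4.2 (8.45%). For the label shARID1B these counts were 2 in shARID1B.2 (5.41%) and 4 in shARID1B.3 (6.97%). Over the conditions, 31 genes were lower in all 6 (51.7%, against 7.54% of all genes), 22 in 5 and 7 in 4 or fewer. Of the 60 genes, 9 were higher in at least 1 condition, where 69.6% of all tested genes were. In Control the genes were well expressed. Per kilobase of exon, they lay between the 54.5th percentile of tested genes (CENPC) and the 97.7th (TPX2), and no gene had fewer than 146 reads in any library.

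**Figure D2:**
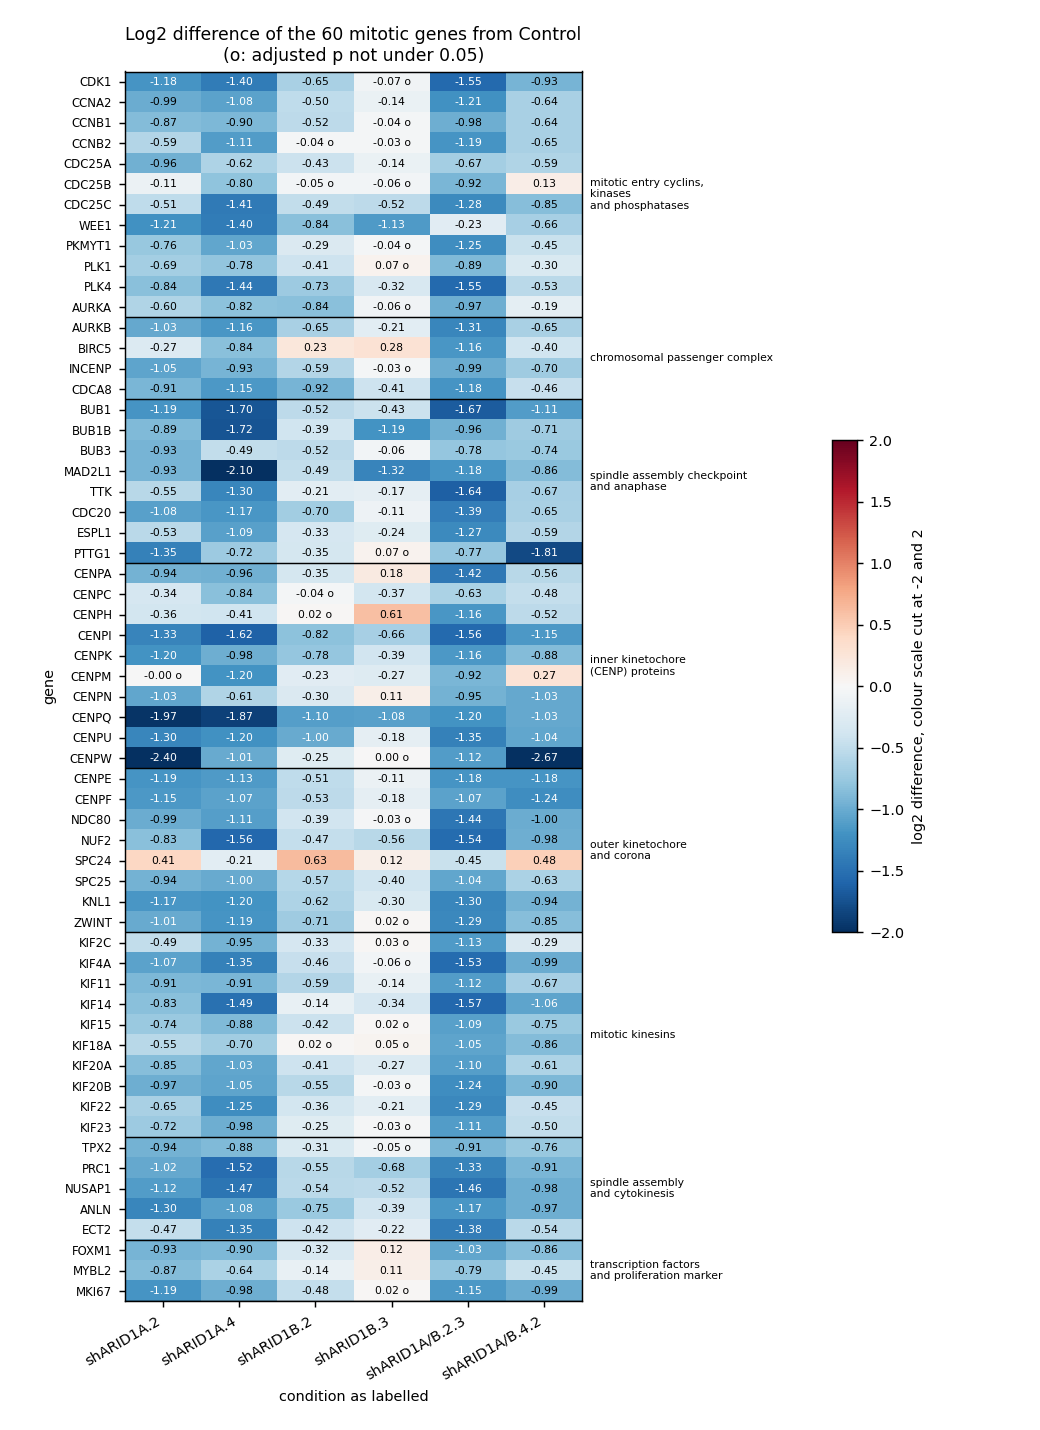
Log2 difference from Control of each of the 60 genes (rows, grouped by role) in the 6 silenced conditions (columns), with the value in each cell and an o where the adjusted p was not under 0.05; blue is lower and red higher. SPC24 is red in 4 columns, and shARID1B.3 is the palest column with a median of -0.12.

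The kinases, cyclins and phosphatases of mitotic entry were lower in all 12 cases in shARID1A.2, shARID1A.4 and shARID1A/B.2.3, with medians of -0.80, -1.05 and -1.08 on the log2 scale. CDK1 (chr10:60778331-60794852), the kinase that drives entry, had 5933, 5783 and 5809 in Control, 2554, 2613 and 2586 in shARID1A.2, 2163, 2190 and 2305 in shARID1A.4, 3723, 3797 and 3631 in shARID1B.2, 5294, 5865 and 5607 in shARID1B.3, 2012, 1954 and 2005 in shARID1A/B.2.3 and 3003, 3132 and 3086 in shARID1A/B.4.2. Its log2 differences were -1.18, -1.40, -0.65, -0.07, -1.55 and -0.93. CDK1 was thus reduced to 34.1% of the Control mean in shARID1A/B.2.3 and 38.0% in shARID1A.4, while its shARID1B.3 libraries overlapped Control (adjusted p = 0.0759 from limma). Without shARID1B.3 replicate 2 that difference was -0.10 and passed. CCNB1 (chr5:69167010-69178245), the cyclin B1 subunit of the same kinase, had 6882, 6539 and 6710 in Control, 3541, 3642 and 3800 in shARID1A.2, 3619, 3614 and 3572 in shARID1A.4, 4740, 4686 and 4636 in shARID1B.2, 6280, 6673 and 6568 in shARID1B.3, 3548, 3347 and 3334 in shARID1A/B.2.3 and 4281, 4331 and 4279 in shARID1A/B.4.2, or log2 differences of -0.87, -0.90, -0.52, -0.04, -0.98 and -0.64. It fell by nearly the same amount in shARID1A.2, shARID1A.4 and shARID1A/B.2.3, and overlapped Control in shARID1B.3.

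PLK1 (chr16:23677656-23690367), the Polo-like kinase of spindle and cytokinesis, had 3833, 3811 and 3885 in Control, 2412, 2247 and 2518 in shARID1A.2, 2231, 2253 and 2221 in shARID1A.4, 2841, 2898 and 2927 in shARID1B.2, 4080, 4107 and 3937 in shARID1B.3, 2125, 1988 and 2117 in shARID1A/B.2.3 and 2983, 3280 and 3087 in shARID1A/B.4.2. The log2 differences of PLK1 were -0.69, -0.78, -0.41, 0.07, -0.89 and -0.30. No shARID1B.3 library lay below Control, but the value of 0.07 did not pass. AURKA (chr20:56369389-56392337), the Aurora kinase of the centrosomes and spindle poles, had 2577, 2560 and 2423 in Control, 1698, 1612 and 1674 in shARID1A.2, 1350, 1423 and 1494 in shARID1A.4, 1369, 1419 and 1432 in shARID1B.2, 2345, 2464 and 2426 in shARID1B.3, 1334, 1255 and 1270 in shARID1A/B.2.3 and 2172, 2265 and 2194 in shARID1A/B.4.2. Its log2 differences of -0.60, -0.82, -0.84, -0.06, -0.97 and -0.19 depart from the usual order, since shARID1B.2 was about as low as shARID1A.4 and shARID1A/B.4.2 was close to Control. With libraries scaled to total reads the shARID1A/B.4.2 value was -0.002 and did not pass. PLK4, which starts centriole duplication, fell in all 6 conditions, most in shARID1A/B.2.3 (-1.55) and shARID1A.4 (-1.44). CCNA2, cyclin A2, fell in all 6 as well, by 0.14 in shARID1B.3 to 1.21 in shARID1A/B.2.3, whereas CCNB2, cyclin B2, was at -0.04 and -0.03 in shARID1B.2 and shARID1B.3, which did not pass.

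The CDC25 phosphatases remove the inhibitory phosphates that WEE1 and PKMYT1 place on CDK1. CDC25A and CDC25C were lower in all 6 conditions, with ranges of -0.96 to -0.14 and of -1.41 to -0.49. CDC25B (chr20:3786772-3806121) had 4213, 4245 and 4213 in Control, 3960, 3800 and 3981 in shARID1A.2, 2383, 2439 and 2463 in shARID1A.4, 3998, 4203 and 4047 in shARID1B.2, 4171, 3919 and 4049 in shARID1B.3, 2263, 2183 and 2263 in shARID1A/B.2.3 and 4452, 4773 and 4605 in shARID1A/B.4.2. It fell to 57.5 and 52.9% of the Control mean in shARID1A.4 and shARID1A/B.2.3 and lay between 92.7 and 109% in the other conditions, with log2 differences of -0.11, -0.80, -0.05, -0.06, -0.92 and 0.13. Its shARID1A/B.4.2 libraries all lay above Control (adjusted p = 0.000512 from limma), and the small fall in shARID1A.2 turned to 0.06 with scaling to total reads. The kinase WEE1 (chr11:9573681-9593457) was chosen for full values after they were seen. It had 2929, 2834 and 2857 in Control, 1241, 1282 and 1203 in shARID1A.2, 1068, 1099 and 1109 in shARID1A.4, 1598, 1623 and 1602 in shARID1B.2, 1290, 1320 and 1326 in shARID1B.3, 2435, 2428 and 2483 in shARID1A/B.2.3 and 1866, 1879 and 1727 in shARID1A/B.4.2. WEE1 fell in all 6 conditions and no groups overlapped, but with log2 differences of -1.21, -1.40, -0.84, -1.13, -0.23 and -0.66 its order was its own: shARID1B.3 was close to shARID1A.2, and shARID1A/B.2.3, in which the median gene fell most, was nearest Control. PKMYT1 followed the common order, with log2 differences of -0.76, -1.03, -0.29, -0.04, -1.25 and -0.45.

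The chromosomal passenger complex, which corrects faulty attachments of kinetochores, has AURKB as its kinase and INCENP, CDCA8 and BIRC5 as its other subunits. AURKB (chr17:8204733-8210600) had 1581, 1751 and 1673 in Control, 819, 798 and 829 in shARID1A.2, 767, 730 and 734 in shARID1A.4, 1042, 1100 and 1049 in shARID1B.2, 1478, 1437 and 1414 in shARID1B.3, 674, 656 and 691 in shARID1A/B.2.3 and 1046, 1114 and 1027 in shARID1A/B.4.2. Its log2 differences of -1.03, -1.16, -0.65, -0.21, -1.31 and -0.65 all passed the test. INCENP and CDCA8 were at -1.05 and -0.91 in shARID1A.2 and at -0.99 and -1.18 in shARID1A/B.2.3. BIRC5 (chr17:78214186-78225636), survivin, had 3961, 3931 and 4050 in Control, 3279, 3344 and 3287 in shARID1A.2, 2219, 2180 and 2288 in shARID1A.4, 4805, 4709 and 4477 in shARID1B.2, 4753, 4846 and 4924 in shARID1B.3, 1835, 1660 and 1865 in shARID1A/B.2.3 and 2954, 3182 and 2900 in shARID1A/B.4.2. Its log2 differences were -0.27, -0.84, 0.23, 0.28, -1.16 and -0.40. The 4 subunits therefore did not move as 1 unit: BIRC5 rose in both conditions labelled shARID1B (adjusted p = 1.1e-05 and 5.28e-07 from limma), in which AURKB fell, and in shARID1A/B.2.3 all 4 fell.

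Genes of the spindle assembly checkpoint and of anaphase were lower in all 8 cases in every condition except shARID1B.3, where 7 of 8 were. BUB1 (chr2:110637698-110678114), a checkpoint kinase, had 4616, 4450 and 4420 in Control, 1962, 1986 and 1978 in shARID1A.2, 1405, 1389 and 1344 in shARID1A.4, 3164, 3137 and 3103 in shARID1B.2, 3263, 3408 and 3365 in shARID1B.3, 1435, 1349 and 1451 in shARID1A/B.2.3 and 2139, 2084 and 2025 in shARID1A/B.4.2, or log2 differences of -1.19, -1.70, -0.52, -0.43, -1.67 and -1.11. It was among the 5 genes with the lowest mean over the conditions. MAD2L1 (chr4:120055608-120067074), which binds and restrains CDC20, had 6399, 6097 and 6257 in Control, 3287, 3367 and 3174 in shARID1A.2, 1462, 1423 and 1484 in shARID1A.4, 4434, 4494 and 4385 in shARID1B.2, 2565, 2442 and 2517 in shARID1B.3, 2938, 2715 and 2641 in shARID1A/B.2.3 and 3365, 3434 and 3529 in shARID1A/B.4.2. With log2 differences of -0.93, -2.10, -0.49, -1.32, -1.18 and -0.86 it was the lowest of the 60 genes in both shARID1A.4 and shARID1B.3. BUB1B (chr15:40161023-40221136), its partner in the mitotic checkpoint complex, was chosen for full values after they were seen and had 6366, 6229 and 6222 in Control, 3340, 3420 and 3399 in shARID1A.2, 1900, 1856 and 1954 in shARID1A.4, 4711, 4853 and 4771 in shARID1B.2, 2709, 2738 and 2800 in shARID1B.3, 3333, 3184 and 3122 in shARID1A/B.2.3 and 3718, 3911 and 3853 in shARID1A/B.4.2. The log2 differences of BUB1B were -0.89, -1.72, -0.39, -1.19, -0.96 and -0.71, again lowest in shARID1A.4 and next lowest in shARID1B.3, with no overlap between any of the conditions.

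PTTG1 (chr5:160421822-160428744), securin, the inhibitor of separase, was also chosen after its values were seen. It had 2902, 2829 and 2937 in Control, 1112, 1160 and 1133 in shARID1A.2, 1665, 1809 and 1773 in shARID1A.4, 2333, 2210 and 2252 in shARID1B.2, 2912, 3072 and 3098 in shARID1B.3, 1765, 1631 and 1701 in shARID1A/B.2.3 and 831, 850 and 789 in shARID1A/B.4.2. Here shARID1A/B.4.2 and shARID1A.2 were lowest, and the log2 differences were -1.35, -0.72, -0.35, 0.07, -0.77 and -1.81. ESPL1, separase itself, fell by 0.53 in shARID1A.2 and by 0.59 in shARID1A/B.4.2. CDC20, the activator of the anaphase-promoting complex, fell in all 6 conditions, from -1.39 in shARID1A/B.2.3 to -0.11 in shARID1B.3. That last fall did not pass without control replicate 1 (-0.09), control replicate 3 (-0.09) or shARID1B.3 replicate 1 (-0.08). The checkpoint kinase TTK had log2 differences of -0.55, -1.30, -0.21, -0.17, -1.64 and -0.67 and BUB3, a checkpoint adaptor, -0.93, -0.49, -0.52, -0.06, -0.78 and -0.74. The shARID1B.3 value of BUB3 did not pass without control replicate 1 (-0.05), control replicate 3 (-0.05) or shARID1B.3 replicate 1 (-0.04), and turned to 0.02 with upper-quartile scaling.

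The inner kinetochore proteins, which sit on centromeric chromatin, did not move evenly: 10 of 10 were lower in shARID1A.4 and shARID1A/B.2.3, 9 in shARID1A.2 and shARID1A/B.4.2, 8 in shARID1B.2 and 6 in shARID1B.3, where 3 were higher. CENPA (chr2:26764289-26801067), the histone H3 variant that marks centromeres, had 1595, 1677 and 1694 in Control, 890, 859 and 837 in shARID1A.2, 833, 869 and 842 in shARID1A.4, 1303, 1297 and 1282 in shARID1B.2, 1902, 1865 and 1867 in shARID1B.3, 686, 547 and 626 in shARID1A/B.2.3 and 1124, 1122 and 1131 in shARID1A/B.4.2. It fell in 5 conditions, and in shARID1B.3 all 3 libraries lay above Control, with log2 differences of -0.94, -0.96, -0.35, 0.18, -1.42 and -0.56. CENPI (chrX:101098218-101163681) fell in all 6 conditions, and had 1020, 1032 and 1059 in Control, 393, 437 and 410 in shARID1A.2, 323, 359 and 327 in shARID1A.4, 611, 559 and 590 in shARID1B.2, 651, 626 and 693 in shARID1B.3, 334, 389 and 332 in shARID1A/B.2.3 and 439, 478 and 489 in shARID1A/B.4.2. Its log2 differences were -1.33, -1.62, -0.82, -0.66, -1.56 and -1.15. CENPQ (chr6:49463378-49493107) had the lowest mean of all 60 genes. It had 709, 728 and 755 in Control, 167, 207 and 187 in shARID1A.2, 189, 190 and 220 in shARID1A.4, 319, 377 and 330 in shARID1B.2, 342, 352 and 339 in shARID1B.3, 295, 328 and 334 in shARID1A/B.2.3 and 329, 372 and 375 in shARID1A/B.4.2. Its log2 differences of -1.97, -1.87, -1.10, -1.08, -1.20 and -1.03 include falls by more than 1 in both conditions labelled shARID1B, in which the median gene fell by 0.47 and 0.12.

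CENPW (chr6:126340174-126348875), a small histone-fold protein, showed the largest single falls. It had 882, 889 and 893 in Control, 169, 167 and 168 in shARID1A.2, 442, 408 and 476 in shARID1A.4, 748, 779 and 715 in shARID1B.2, 831, 934 and 908 in shARID1B.3, 416, 404 and 404 in shARID1A/B.2.3 and 133, 144 and 139 in shARID1A/B.4.2. The values were 18.9% of the Control mean in shARID1A.2 and 15.6% in shARID1A/B.4.2, 49.8% and 46.0% in shARID1A.4 and shARID1A/B.2.3, and overlapped Control in shARID1B.3. Its log2 differences were -2.40, -1.01, -0.25, 0.004, -1.12 and -2.67. CENPH (chr5:69189548-69210357) went the other way in shARID1B.3. It had 1447, 1322 and 1356 in Control, 1101, 1041 and 1058 in shARID1A.2, 1045, 1012 and 1054 in shARID1A.4, 1371, 1373 and 1433 in shARID1B.2, 2083, 2060 and 2140 in shARID1B.3, 693, 569 and 591 in shARID1A/B.2.3 and 959, 988 and 928 in shARID1A/B.4.2, or log2 differences of -0.36, -0.41, 0.02, 0.61, -1.16 and -0.52. All shARID1B.3 libraries lay above every other library (adjusted p = 2.02e-10 from limma), while shARID1B.2 overlapped Control.

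CENPM (chr22:41938721-41947164) and CENPN (chr16:81006498-81033114), other subunits of the centromere-associated network, also left the common fall. CENPM had 532, 485 and 540 in Control, 528, 493 and 530 in shARID1A.2, 258, 225 and 196 in shARID1A.4, 420, 462 and 443 in shARID1B.2, 424, 433 and 436 in shARID1B.3, 303, 256 and 265 in shARID1A/B.2.3 and 569, 643 and 672 in shARID1A/B.4.2. It overlapped Control in shARID1A.2 and lay above it in shARID1A/B.4.2, with log2 differences of -0.004, -1.20, -0.23, -0.27, -0.92 and 0.27. Its fall in shARID1B.2 did not pass without control replicate 1 (-0.21), control replicate 3 (-0.20) or shARID1B.2 replicate 1 (-0.20), or with scaling to total reads (-0.10). CENPN had 1674, 1570 and 1654 in Control, 808, 840 and 746 in shARID1A.2, 1053, 1089 and 1068 in shARID1A.4, 1323, 1350 and 1313 in shARID1B.2, 1694, 1763 and 1831 in shARID1B.3, 877, 807 and 852 in shARID1A/B.2.3 and 779, 808 and 815 in shARID1A/B.4.2. Its log2 differences were -1.03, -0.61, -0.30, 0.11, -0.95 and -1.03. The small rise of CENPN in shARID1B.3 did not pass without control replicate 2 (0.08) or without shARID1B.3 replicate 2 (0.11) or 3 (0.08). CENPU and CENPK fell in all 6 conditions, with log2 differences of -1.30, -1.20, -1.005, -0.18, -1.35 and -1.04 and -1.20, -0.98, -0.78, -0.39, -1.16 and -0.88. CENPC, the scaffold of the inner kinetochore, had -0.34, -0.84, -0.04, -0.37, -0.63 and -0.48, and its shARID1B.2 value did not pass. Against the median change of the 60 genes, subtracted as described below, it fell less in 5 conditions and more in shARID1B.3 (-0.20).

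In the outer kinetochore, 7 of 8 genes fell in shARID1A.2, shARID1B.2 and shARID1A/B.4.2 while SPC24 rose, and all 8 fell in shARID1A.4 and shARID1A/B.2.3. The NDC80 complex, which grips microtubules, is made of NDC80, NUF2, SPC24 and SPC25. NDC80 (chr18:2571511-2616635) had 1143, 1113 and 1135 in Control, 591, 572 and 546 in shARID1A.2, 534, 529 and 510 in shARID1A.4, 857, 861 and 871 in shARID1B.2, 1064, 1108 and 1161 in shARID1B.3, 469, 390 and 393 in shARID1A/B.2.3 and 541, 625 and 536 in shARID1A/B.4.2. Its log2 differences were -0.99, -1.11, -0.39, -0.03, -1.44 and -0.997, with shARID1B.3 overlapping Control. NUF2 and SPC25 had log2 differences of -0.83, -1.56, -0.47, -0.56, -1.54 and -0.98 and of -0.94, -1.004, -0.57, -0.40, -1.04 and -0.63, and all passed.

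SPC24 (chr19:11131520-11155808) had 836, 880 and 863 in Control, 1143, 1198 and 1095 in shARID1A.2, 752, 750 and 722 in shARID1A.4, 1377, 1270 and 1342 in shARID1B.2, 973, 880 and 961 in shARID1B.3, 623, 628 and 634 in shARID1A/B.2.3 and 1167, 1234 and 1206 in shARID1A/B.4.2. It rose in shARID1A.2, shARID1B.2, shARID1B.3 and shARID1A/B.4.2 and fell in shARID1A.4 and shARID1A/B.2.3, with log2 differences of 0.41, -0.21, 0.63, 0.12, -0.45 and 0.48 (standard error 0.04 in each; adjusted p = 5.11e-09, 0.000103, 3.5e-12, 0.015, 1.29e-09 and 3.54e-10 from limma). SPC24 was the only one of the 60 genes with a mean above 0 over the conditions, at 0.16. The 3 libraries of shARID1B.2 lay at 1270 to 1377, above all others, and the lowest of shARID1B.3 was level with the highest of Control. The small rise in shARID1B.3 did not pass without control replicate 1 (0.11), shARID1B.3 replicate 1 (0.10) or shARID1B.3 replicate 3 (0.11). The other subunits of its complex fell in the conditions in which it rose, except NDC80 in shARID1B.3.

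CENPE, a kinetochore motor, and CENPF, a large corona protein, had log2 differences of -1.19, -1.13, -0.51, -0.11, -1.18 and -1.18 and -1.15, -1.07, -0.53, -0.18, -1.07 and -1.24. The shARID1B.3 value of CENPE did not pass without shARID1B.3 replicate 1 (-0.09). KNL1, the checkpoint platform, fell in all 6 conditions, with log2 differences of -1.17, -1.20, -0.62, -0.30, -1.30 and -0.94. ZWINT, which links KNL1 to the corona, had log2 differences of -1.01, -1.19, -0.71, 0.02, -1.29 and -0.85.

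The 10 mitotic kinesins fell evenly in shARID1A/B.2.3, where their log2 differences ran from -1.57 (KIF14) to -1.05 (KIF18A). All 10 were also lower in shARID1A.2, shARID1A.4 and shARID1A/B.4.2, with medians of -0.79, -1.01 and -0.71, while 9 were lower in shARID1B.2 and 4 in shARID1B.3. KIF11 (chr10:92593286-92655395), the motor that pushes spindle poles apart, had 5745, 5959 and 5627 in Control, 3055, 3131 and 3058 in shARID1A.2, 3016, 3059 and 3120 in shARID1A.4, 3841, 3796 and 3889 in shARID1B.2, 5130, 5303 and 5240 in shARID1B.3, 2809, 2639 and 2546 in shARID1A/B.2.3 and 3594, 3727 and 3594 in shARID1A/B.4.2. Its log2 differences of -0.91, -0.91, -0.59, -0.14, -1.12 and -0.67 all passed the test. KIF14 and KIF4A, kinesins of cytokinesis and the anaphase midzone, had -0.83, -1.49, -0.14, -0.34, -1.57 and -1.06 and -1.07, -1.35, -0.46, -0.06, -1.53 and -0.99. The shARID1B.2 value of KIF14 did not pass without control replicate 1 (-0.11). KIF2C, a microtubule depolymerase of the centromere, fell least in shARID1A/B.4.2, with log2 differences of -0.49, -0.95, -0.33, 0.03, -1.13 and -0.29. KIF18A, which limits microtubule length, was at 0.02 and 0.05 in shARID1B.2 and shARID1B.3, which did not pass. KIF15, KIF20A, KIF20B, KIF22 and KIF23 lay between -1.29 and 0.02 over all conditions, and of these KIF20A and KIF22 were lower in all 6.

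Genes of spindle assembly and cytokinesis were lower in all 5 cases in 5 conditions and in 4 of 5 cases in shARID1B.3. PRC1, which bundles midzone microtubules, had log2 differences of -1.02, -1.52, -0.55, -0.68, -1.33 and -0.91. NUSAP1, a microtubule binding protein, and ANLN, anillin of the contractile ring, had -1.12, -1.47, -0.54, -0.52, -1.46 and -0.98 and -1.30, -1.08, -0.75, -0.39, -1.17 and -0.97. ECT2, which activates RhoA at the cleavage site, fell more in shARID1A.4 (-1.35) and shARID1A/B.2.3 (-1.38) than in shARID1A.2 (-0.47) and shARID1A/B.4.2 (-0.54). TPX2, an activator of AURKA, was at -0.05 in shARID1B.3, which did not pass, and fell by 0.31 to 0.94 elsewhere.

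MKI67 (chr10:128096659-128126385), the Ki-67 proliferation marker, had 28866, 29256 and 28988 in Control, 12729, 12969 and 12571 in shARID1A.2, 14951, 14591 and 14618 in shARID1A.4, 21431, 20073 and 20981 in shARID1B.2, 30377, 27930 and 30274 in shARID1B.3, 13176, 13219 and 12809 in shARID1A/B.2.3 and 14582, 14703 and 14549 in shARID1A/B.4.2. It fell to between 43.9 and 71.7% of the Control mean in 5 conditions and overlapped Control in shARID1B.3, with log2 differences of -1.19, -0.98, -0.48, 0.02, -1.15 and -0.99. Without shARID1B.3 replicate 2 the value in shARID1B.3 was 0.06 and passed. FOXM1 (chr12:2857681-2877155) had 8230, 8212 and 8387 in Control, 4262, 4434 and 4364 in shARID1A.2, 4348, 4503 and 4469 in shARID1A.4, 6722, 6608 and 6584 in shARID1B.2, 8904, 8997 and 9185 in shARID1B.3, 4085, 3994 and 4060 in shARID1A/B.2.3 and 4493, 4652 and 4574 in shARID1A/B.4.2. MYBL2 (chr20:43667019-43716496), B-Myb, had 5980, 5893 and 6223 in Control, 3301, 3246 and 3339 in shARID1A.2, 3845, 4012 and 3798 in shARID1A.4, 5458, 5476 and 5455 in shARID1B.2, 6486, 6407 and 6694 in shARID1B.3, 3568, 3316 and 3577 in shARID1A/B.2.3 and 4268, 4690 and 4277 in shARID1A/B.4.2. Both activators fell in 5 conditions, and lay above Control in all 3 libraries of shARID1B.3. The log2 differences were -0.93, -0.90, -0.32, 0.12, -1.03 and -0.86 for FOXM1 and -0.87, -0.64, -0.14, 0.11, -0.79 and -0.45 for MYBL2, and the value of MYBL2 in shARID1B.2 was -0.01 and did not pass with scaling to total reads.

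To see which genes left the common fall, the median change of the 60 genes was subtracted from each library and the fit repeated, so that a gene that changed like the others has a difference of 0. The common change was close between the 3 libraries of a condition, ranging at the widest from -1.191 to -1.12, in shARID1A/B.2.3. Genes above 0 in this fit fell less than the others and genes below 0 fell more. The counts of genes that fell less and more were 23 and 22 in shARID1A.2, 24 and 21 in shARID1A.4, 19 and 25 in shARID1B.2, 27 and 19 in shARID1B.3, 21 and 21 in shARID1A/B.2.3, and 26 and 25 in shARID1A/B.4.2. Of all tested genes, 80.6 and 8.38%, 81.2 and 6.75%, 65.7 and 11.2%, 46.4 and 20.8%, 85.5 and 3.59%, and 77.4 and 8.57% were called in the same way. Because the median is built from these genes, the even split is set by the method, and only the sizes are described. Called departures of more than 0.5 on the log2 scale numbered 1 to 6 upward and 0 to 5 downward in a condition. The share of all genes beyond 0.5 is not given here.

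SPC24 lay above the common change in all 6 conditions, by 1.34, 0.87, 1.06, 0.30, 0.72 and 1.23. CDC25B did too, by 0.82, 0.29, 0.39, 0.11, 0.25 and 0.87, and PLK1 by 0.24, 0.30, 0.02, 0.25, 0.28 and 0.44, of which the value in shARID1B.2 did not pass (adjusted p = 0.589 from limma). BIRC5 was above it by 0.66 in shARID1A.2 and in shARID1B.2 and by 0.02 in shARID1A/B.2.3. CENPM lay above the common change by 0.924 in shARID1A.2 and 1.015 in shARID1A/B.4.2, and CENPH by 0.678 in shARID1A.4 and 0.783 in shARID1B.3. These genes form no single pattern. SPC24, CDC25B and CENPM departed most in shARID1A.2 and shARID1A/B.4.2, BIRC5 in shARID1A.2 and shARID1B.2, and CENPH in shARID1A.4 and shARID1B.3. Below the common change, CENPI lay lower in every condition, between -0.54 and -0.38. CENPQ departed by -1.037, -0.785, -0.66, -0.906, -0.024 and -0.286, of which the value in shARID1A/B.2.3 did not pass. BUB1 (-0.62 to -0.083), KNL1 (-0.24 to -0.117), PRC1 (-0.502 to -0.095) and NUSAP1 (-0.383 to -0.104) were also called below it in all 6 conditions. CENPW departed by -1.47 in shARID1A.2 and -1.93 in shARID1A/B.4.2 and PTTG1 by -0.42 and -1.07, and both lay above the common change in shARID1B.3. MAD2L1 departed by -1.02 and -1.14 and BUB1B by -0.64 and -1.01 in shARID1A.4 and shARID1B.3. In the other 4 conditions MAD2L1 stayed within 0.12 of the common change and BUB1B within 0.21. WEE1 ran from -0.95 in shARID1B.3 to 0.94 in shARID1A/B.2.3.

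**Figure D3:**
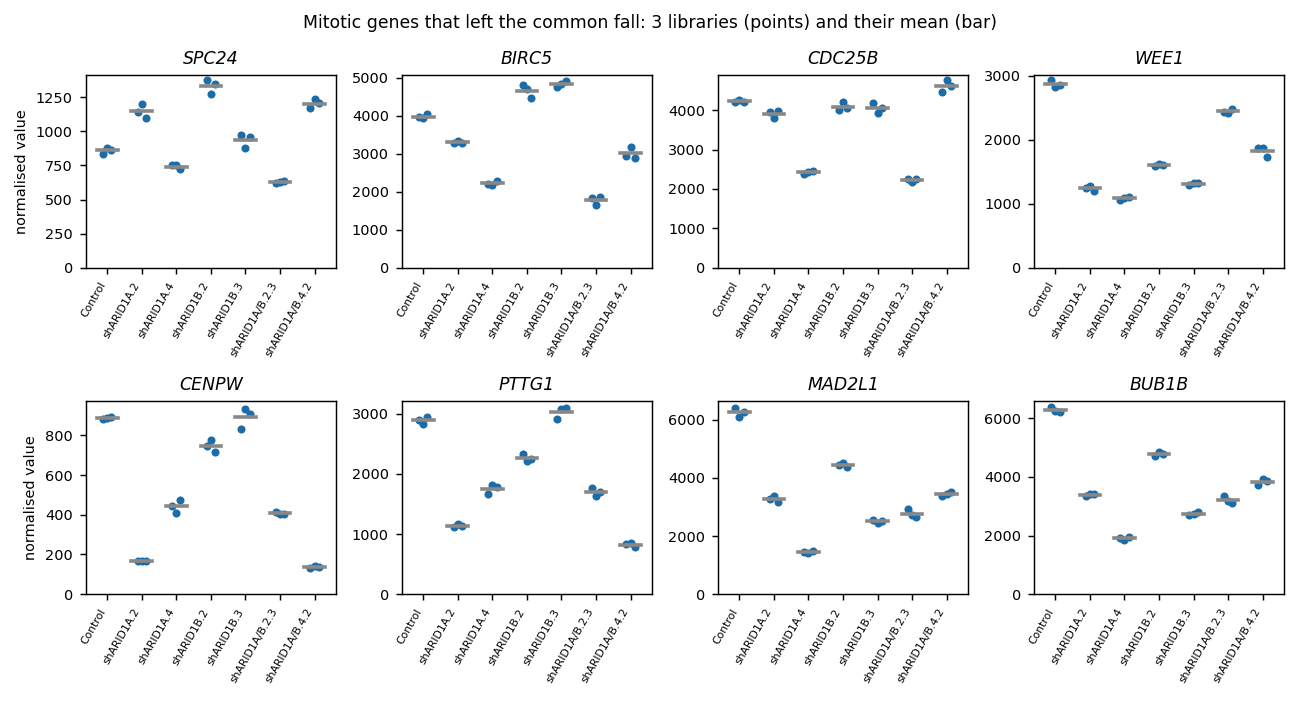
Normalised value (reads divided by 1 size factor per library) of 8 genes in each library, 3 points per condition with their mean as a grey bar, axes from 0. CENPW and PTTG1 are lowest in shARID1A.2 and shARID1A/B.4.2, MAD2L1 and BUB1B in shARID1A.4 and shARID1B.3, and SPC24 is above Control in 4 conditions.

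Each label stands for 2 conditions named with different hairpin numbers, and these were compared directly, with no Control value in the difference. The fall was uneven within every label. Between shARID1A.2 and shARID1A.4, 13 genes were lower and 36 higher in shARID1A.2 (37.3% and 38.4% of all tested genes), with a median difference of 0.16 on the log2 scale. The lowest difference was that of CENPW (-1.39 ± 0.06, standard error) and the highest were those of CENPM (1.20 ± 0.08) and MAD2L1 (1.17 ± 0.03). Between shARID1B.2 and shARID1B.3, 43 genes were lower and 8 higher in shARID1B.2 (33.0% of all genes in each direction), with a median of -0.31 and extremes in CENPU (-0.82) and MAD2L1 (0.82). Between shARID1A/B.2.3 and shARID1A/B.4.2, 51 genes were lower and 4 higher in shARID1A/B.2.3 (37.8% and 37.1%), with a median of -0.44. The extremes were CENPM (-1.19 ± 0.08) and CENPW (1.55 ± 0.06), and PTTG1 (1.05 ± 0.04) was next to CENPW.

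These within-label differences passed limma's test with adjusted p-values of 6.17e-17 and 7.03e-18 for CENPW, 1.66e-12 and 2.03e-12 for CENPM, 3.37e-20 and 8.67e-17 for MAD2L1 and 4.28e-18 for PTTG1. SPC24 differed within all 3 labels, by 0.63, 0.50 and -0.94. CDC25B differed by 0.69 between shARID1A.2 and shARID1A.4 and by -1.04 between the 2 conditions labelled shARID1A/B. Its difference between the 2 conditions labelled shARID1B was 0.01 ± 0.03 (adjusted p = 0.716 from limma). ARID1A and ARID1B levels were uneven as well, ARID1B by -0.47, -0.28 and 0.45 within the labels shARID1A, shARID1B and shARID1A/B, and ARID1A by -0.06, -0.37 and 0.06. With the libraries of shARID1A.2, shARID1B.2 and shARID1A/B.4.2 having the lower sums of normalised values, hairpin and library composition cannot be told apart in these differences.

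**Figure D4:**
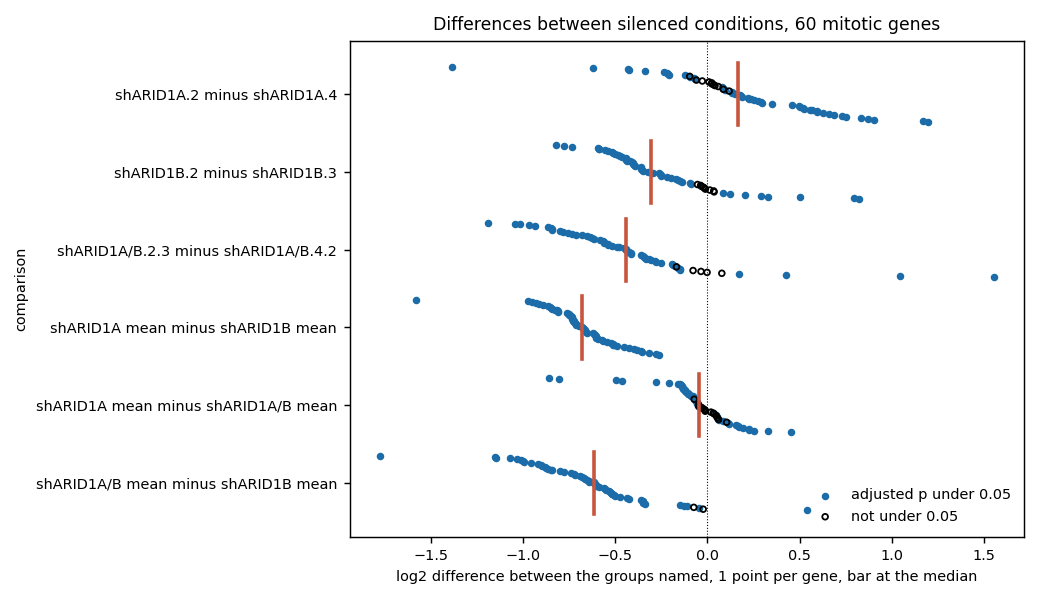
Log2 difference of each of the 60 genes between 2 silenced conditions or between the means of 2 labels (rows), filled where the adjusted p was under 0.05 and open where not, with a red bar at the median. The shARID1A minus shARID1B row lies wholly below 0, with a median of -0.68, and the shARID1A minus shARID1A/B row is centred near 0, with a median of -0.05.

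Between labels, the mean of the 2 conditions of each was compared. These tests and standard errors rest on the spread between libraries of the same condition. They leave out the difference between the 2 conditions of a label, which was -1.39 for CENPW within shARID1A. All 60 genes were lower in the libraries labelled shARID1A, in which both subunits were low, than in those labelled shARID1B, in which ARID1A was low, with a median difference of -0.68 on the log2 scale and a range from -1.58 (CENPW) to -0.26 (AURKA). Of all tested genes 32.8% were lower and 34.6% higher. The libraries labelled shARID1A/B, in which ARID1B was low, were below those labelled shARID1B by a median of -0.62, with 57 genes lower and WEE1 higher (0.54 ± 0.02), against 35.0% and 35.1% of all genes. In this comparison CENPM and CENPQ differed by -0.07 and -0.02, which did not pass. The libraries labelled shARID1A and shARID1A/B were close: 28 genes were lower and 16 higher in shARID1A (28.7% and 30.5% of all genes), with a median of -0.05. The largest differences there were in WEE1 (-0.86), CENPQ (-0.81), MAD2L1 (-0.50) and BUB1B (-0.47), lower in shARID1A, and in CENPH (0.45) and KIF18A (0.33), higher in shARID1A.

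The other genes of the pathway were counted from 9 lists of mitotic genes and 1 of the MuvB and DREAM subunits that regulate them, 115 genes in all, and all were tested. Of these, 99 were lower and 5 higher in shARID1A.2, 94 and 6 in shARID1A.4, 90 and 12 in shARID1B.2, 54 and 29 in shARID1B.3, 97 and 6 in shARID1A/B.2.3 and 99 and 7 in shARID1A/B.4.2. In the same order, 86.1, 81.7, 78.3, 47, 84.3 and 86.1% were lower, against 38.2, 36.6, 34.0, 32.0, 34.0 and 36.1% of all tested genes. Of all tested genes 37.9, 37.0, 31.6, 31.9, 35.2 and 35.1% were higher. The counts of the single lists below stand beside these same shares. Their median log2 differences were -0.61, -0.66, -0.33, -0.07, -0.76 and -0.51 and were smaller in size than those of the 60 genes in each condition. Condensin genes, which compact chromosomes, fell in 8 of 8 cases in 5 conditions, with a median of -1.25 in shARID1A/B.2.3, and 2 lower and 4 higher in shARID1B.3. NCAPD3 had the lowest mean of them (-1.90, -1.21, -0.88, 0.08, -1.22 and -1.17) and NCAPH2 the highest (-0.54, -0.66, -0.16, 0.14, -0.91 and -0.44).

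All 6 regulators of CENP-A deposition fell in 4 conditions, with HJURP, the CENP-A chaperone, lowest (-0.86, -1.06, -0.38, -0.02, -1.26 and -0.76) and MIS18A highest (-0.19, -0.50, -0.07, 0.42, -0.86 and -0.12). In the MIS12 and SKA complexes, which join the NDC80 complex to the kinetochore and to microtubules, all 7 genes fell in the same 4 conditions, SKA2 most (-0.67, -1.52, -0.95, 0.10, -1.50 and -0.32) and PMF1 least (-0.25, -0.20, 0.10, -0.01, -0.16 and -0.11). Among 8 other inner kinetochore genes, CENPL was lowest (-1.27, -0.53, -0.28, 0.07, -0.76 and -1.37) and CENPP highest (-0.08, -0.25, 0.06, 0.36, -0.38 and -0.27). Cohesin and its regulators fell in 12 of 12 cases in 4 conditions and 11 of 12 in shARID1A/B.4.2, with SGO2, shugoshin 2, at -1.35, -1.56, -0.55, -0.25, -1.66 and -1.22 and NIPBL, the cohesin loader, at -0.24, -0.32, -0.09, -0.06, -0.32 and -0.31.

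Of 18 genes of the anaphase-promoting complex and its regulators, 10 to 14 were lower and 1 to 4 higher in the conditions other than shARID1B.3 (6 and 4), with medians between -0.36 and -0.11. ANAPC11, its RING subunit, had -0.33, -1.77, -0.04, -2.09, -0.50 and -0.41 and ANAPC16 0.57, -0.14, 0.31, 0.31, -0.63 and 0.14. The RZZ complex and checkpoint adaptors ran from SPDL1 (-1.09, -1.18, -0.71, -0.87, -0.63 and -0.74) to MAD2L2 (0.15, 0.28, 0.43, 0.09, 0.12 and 0.25). The 28 other spindle, centrosome and cytokinesis genes had 23 to 26 lower in 5 conditions, from CEP55, an abscission factor (-1.54, -2.19, -0.56, -0.40, -2.33 and -1.59), to HAUS4, an augmin subunit (0.48, 0.12, 0.19, 0.23, -0.49 and 0.16), and the 10 other kinases and entry factors ran from CDK2 (-1.23, -1.89, -0.58, -0.23, -1.96 and -1.003) to ENSA (0.05, -0.45, -0.05, -0.13, -0.55 and 0.15). The list of MuvB and DREAM subunits held 6 to 8 of 10 lower genes outside shARID1B.3, with MYBL1, A-Myb, lowest (-0.59, -2.02, -0.99, -0.35, -2.60 and -0.72) and E2F5 highest (0.89, 0.34, 0.33, -0.90, 0.90 and 0.38).

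A list of 10 reference genes often used for scaling did not stay level. Its medians were -0.51, -0.16, -0.32, -0.07, -0.10 and -0.40, lower in the 3 conditions with the lower sums of normalised values, and 6 to 8 of its genes were called lower in each condition. HPRT1 had -2.12, -0.59, -0.45, -0.59, -0.25 and -2.70 and RPLP0 0.76, 0.75, 0.69, 0.43, 0.65 and 0.28. In shARID1A.4 and shARID1A/B.2.3, the conditions in which all 60 mitotic genes fell, 6 of the 10 reference genes were lower and 2 higher, with ranges of -0.89 to 0.75 and of -0.56 to 0.65.

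**Figure D5:**
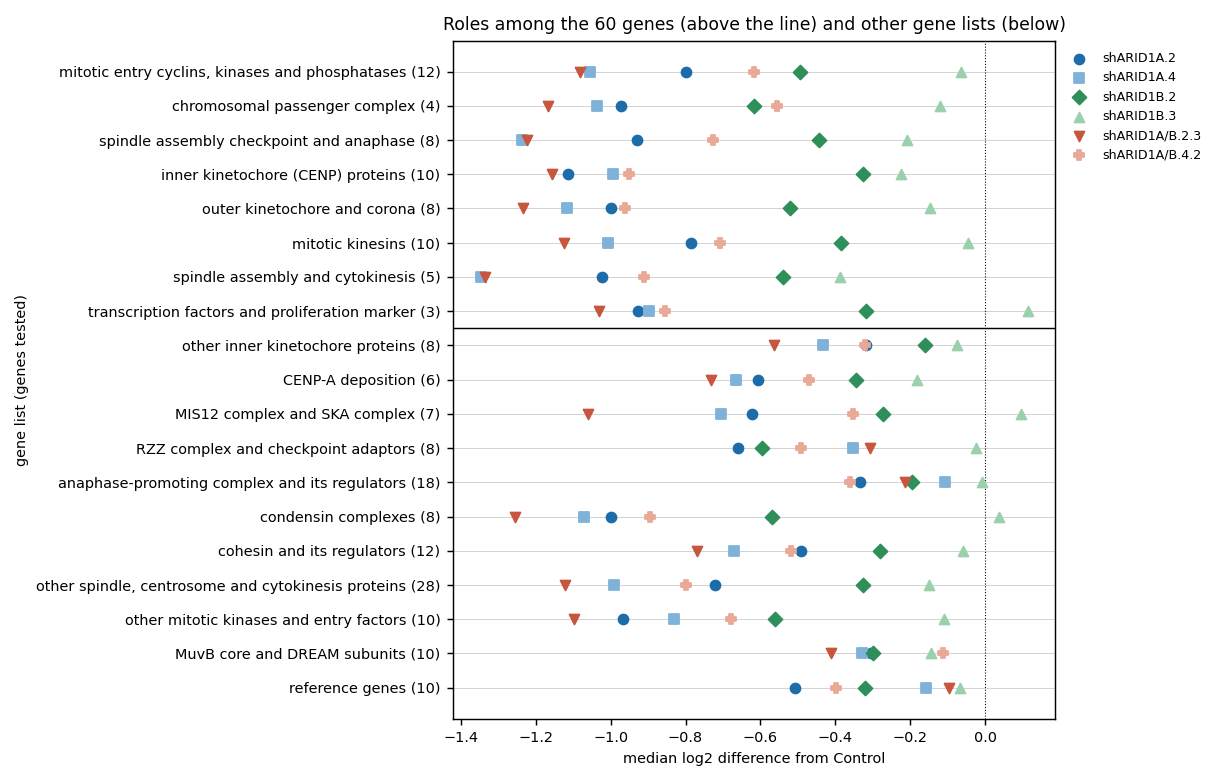
Median log2 difference from Control of the 8 roles among the 60 genes (above the line) and of 11 other gene lists (below), 1 marker per condition, with the number of genes tested in brackets. The roles lie between -1.35 and -0.55 in the conditions other than those labelled shARID1B, and the medians of the anaphase-promoting complex lie between -0.36 and -0.01.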

How the data were processed

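RNA was sequenced by the authors as TruSeq Stranded mRNA libraries on an Illumina NovaSeq. The submitters' processing notes name STAR 2.5.3a, RSEM 1.3.0, DESeq2 1.26.0 and GRCh38; the annotation release was not given in the sources used here. The deposited table holds a signal per gene and library, that is, the authors' counts divided by 1 size factor per library. Whole reads were recovered from it for 100% of values (within 0.01 read, largest deviation 0.0066), with size factors of 0.841 to 1.295. The authors' own columns of fold changes and p-values were not used.

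Values were taken as log2 of the deposited value plus 1 and filtered by edgeR's filterByExpr, which left 18584 genes. They were fitted with limma 3.58.1 with trend over all 21 libraries and 7 conditions in R 4.3.3, and p-values were adjusted over all genes by the Benjamini-Hochberg method. For departures from the common fall, the median change of the 60 genes was subtracted from each library before the same fit. The members and gene lists were chosen with earlier results of these data known. Full values are given for 10 genes set by role, for genes not lower in 3 or more conditions or higher in any, and for the 5 with the lowest mean, and WEE1, PTTG1 and BUB1B were added after their values were seen. Of the other genes of the pathway, the lowest and the highest mean in each list are named. Gene coordinates are from GENCODE 29 on GRCh38.

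The alternatives were edgeR 4.0.16 and DESeq2 1.42.0 on recovered reads, pseudocounts of 0.5 and 5, no filter or at least 10 reads in every library, scaling to total reads or to the upper quartile, a replicate block, only the libraries compared, and each library left out. A threshold of 0.001 for departures was chosen after seeing the data. On data simulated for shARID1A.2 against Control with 18584 genes, the fit found 99 of 100 genes changed by 1 and 91 of 100 changed by 0.5 on the log2 scale, with 15 calls among unchanged genes. The libraries of each of the 21 pairs within a condition differed by more than sampling noise (chi-square per degree of freedom 1.55 to 4.26). The summed level of the adrenergic markers is not reported here.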

Additional observations from a re-analysis of the deposited data

Results flagged for a closer look

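For 8 differences between 2 conditions that carry the same label, the gene was called in opposite directions against Control and the difference itself passed limma's test. SPC24, a subunit of the NDC80 complex, differed by 0.626 on the log2 scale between shARID1A.2 and shARID1A.4 (0.41 and -0.21 against Control, adjusted p = 1.89e-12 from limma). It differed again by -0.935 between shARID1A/B.2.3 and shARID1A/B.4.2 (-0.45 and 0.48, adjusted p = 6.67e-16). In this second pair of conditions CENPM differed by -1.191 (-0.92 and 0.27, adjusted p = 2.03e-12 from limma) and CDC25B by -1.043 (-0.92 and 0.13, adjusted p = 2.71e-20). These 3 genes were lower in shARID1A/B.2.3 and higher in shARID1A/B.4.2, and the libraries of the second had the lower sums of normalised values, whose part was not tested.

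Between shARID1B.2 and shARID1B.3, 4 genes were lower in the first and higher in the second. They were CENPA (-0.537, from -0.35 and 0.18 against Control, adjusted p = 1.1e-09 from limma), FOXM1 (-0.444, from -0.32 and 0.12, adjusted p = 4.4e-15), CENPN (-0.406, from -0.30 and 0.11, adjusted p = 7.04e-09) and MYBL2 (-0.257, from -0.14 and 0.11, adjusted p = 3.44e-07). The rise of CENPN in shARID1B.3 did not pass without control replicate 2 or shARID1B.3 replicate 2 or 3, and the fall of MYBL2 in shARID1B.2 did not pass with scaling to total reads. Groups held 3 libraries each, too few to test single libraries as outliers.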

How the results depend on the processing

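The direction of the median over the 60 genes was kept in all 6 conditions under every alternative. On recovered reads edgeR called 5610 to 6928 of all genes lower and 6241 to 7260 higher in a condition, and its medians over the 60 genes were -0.439 in shARID1B.2, -0.097 in shARID1B.3 and -0.673 in shARID1A/B.4.2. Scaling to total reads moved the median of all genes by 0.169, 0.135 and 0.184 in shARID1A.2, shARID1B.2 and shARID1A/B.4.2, and the medians over the 60 genes to -0.758, -0.331 and -0.521, and to -0.096 in shARID1B.3. It also called 6 of the 60 genes higher in shARID1B.2, against 7891 of all 18584 tested genes, and 8 lower in shARID1A.2 than in shARID1A.4. Upper-quartile scaling gave medians of -0.879, -0.991, -0.050, -1.116 and -0.678 in shARID1A.2, shARID1A.4, shARID1B.3, shARID1A/B.2.3 and shARID1A/B.4.2. It called 12 of the 60 genes higher in shARID1B.3, against 7077 of all 18584 tested genes. The cause was not tested. Among 372 results for single genes, 371 kept direction and call with DESeq2, 365 with edgeR, 350 with scaling to total reads, 349 with upper-quartile scaling, and 372 with either pseudocount.

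Single genes that changed sign lay near 0. With upper-quartile scaling the shARID1B.3 differences were CDK1 0.009, CCNB1 0.030, CCNB2 0.041, CDC25B 0.012, PKMYT1 0.030, AURKA 0.011, INCENP 0.040, BUB3 0.020, NDC80 0.049, KIF4A 0.015, KIF20B 0.040, KIF23 0.048 and TPX2 0.026. NDC80 and KIF23 were at 0.003 and 0.002 there with scaling to total reads, and at 0.004 and 0.001 with edgeR. With scaling to total reads CCNB2, CDC25B and CENPC were at 0.093, 0.087 and 0.093 in shARID1B.2, and CDC25B at 0.061 in shARID1A.2. CENPM in shARID1A.2 was at 0.016 with edgeR, 0.168 with total reads and 0.046 with the upper quartile. With 1 library left out, ranges that crossed 0 were -0.052 to 0.030 for CENPM in shARID1A.2, -0.009 to 0.056 for CENPH and -0.005 to 0.048 for KIF18A in shARID1B.2, and, in shARID1B.3, -0.031 to 0.053 for CENPW, -0.019 to 0.052 for KIF15, -0.058 to 0.005 for NDC80, -0.110 to 0.025 for PKMYT1 and -0.009 to 0.041 for ZWINT.

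Same-numbered libraries did not deviate together (r -0.0879 to 0.0529 over 63 pairs), so the numbers do not pair them. With the replicate number as a block, 58 genes were lower in shARID1A.2, 37 were higher in shARID1A.2 than in shARID1A.4, and 372 of 372 single-gene results kept direction and call. At an adjusted p under 0.001, 13 to 20 genes fell less and 17 to 21 more than the common change. This split too is set by the method, and the share of all genes at this threshold is not given here. With 3 libraries a condition, differences near 0.1 on the log2 scale were at the limit of what passed.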
